A study of Mus musculus with 43 samples.

Results

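The complement components and regulators described here are C1qa, C1qb, C1qc, C3, C4b, Cfb, Cfi, Serping1 and Cd59a. They were found in the read-count table as the rows whose mouse Ensembl gene carries one of these symbols, and all 9 were present among 54532 genes. Of these, 8 passed the filter on low counts and were tested among 18197 genes. Cfb did not pass. The retinas came from C57BL/6J mice, 9 weeks old when laser lesions were set to induce choroidal neovascularization, and each library pooled 2 retinas of different animals of the same group. Every mouse was lesioned, the controls included, so no library represents an unlesioned retina. Control mice received the lesion alone. SCFA mice drank a mixture of short-chain fatty acids, with 67.5 mM sodium acetate, 25 mM sodium butyrate and 40 mM sodium propionate on the labels, from before the lesion until collection. The g/L values on the same labels do not match the mM values of butyrate and propionate, so those doses remain uncertain. Collection was at 3, 7 or 14 days post lesion (dpl). With both sexes this gave 12 groups of 3 to 5 libraries and 43 libraries in all, of which 19 were control and 24 SCFA. Treatment was taken from the sample titles, since the treatment field of the labels reads control in every sample.

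Complement is a cascade of plasma and tissue proteins that tags and lyses targets. In the classical pathway, C1q, built from the products of C1qa, C1qb and C1qc, binds a target and starts cleavage of C4 and C2, and the resulting enzyme cleaves C3. In the alternative pathway, factor B, encoded by Cfb, pairs with C3b to amplify this cleavage. Factor I (Cfi) inactivates C3b and C4b, C1 inhibitor (Serping1) blocks the C1 proteases, and CD59 (Cd59a) stops assembly of the membrane attack complex. Microglia are known as the main source of C1q in neural tissue, and reactive glia as a source of C3 and C4. Bulk retina cannot tell fewer cells of a type from less RNA per cell.

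Library totals ran from 14826957 to 21507527 counts, and values are given as CPM, counts divided by the TMM-scaled library total, a scaling that limits the weight of a few abundant genes. The first 31 and the last 12 columns of the table differed in many genes, although the labels name no batch. These 2 runs of columns were kept as a term in the fit. A gene was called where the quasi-likelihood test of edgeR gave an adjusted p below 0.1. P-values were adjusted by Benjamini-Hochberg over all genes tested. Log2 fold changes are given ± SE. Nothing on the labels names separate litters or cages, so the p-values measure the spread between these pools. A female control library at 7 dpl, replicate 2, held 784 counts of Y-linked genes that were at 0 in the other 21 female libraries. A female SCFA library at 3 dpl, replicate 2, held 235100 CPM of lens transcripts, against at most 673 CPM elsewhere. Member calls that change without this pair of libraries are named beside the results. Retinal and microglial transcripts were present in every library, and none of the 10 microglial markers was at 0 in any library.

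The C1q genes lie side by side on the minus strand of chromosome 4 (GRCm38), C1qb at 136880129 to 136886187, C1qc at 136889804 to 136893065 and C1qa at 136895917 to 136898803. C3 (57203970 to 57228136), C4b (34728380 to 34743882) and Cfb (34856374 to 34862518) lie on chromosome 17. Serping1 (84765387 to 84775444) and Cd59a (104095801 to 104115354) lie on chromosome 2 and Cfi (129835884 to 129875332) on chromosome 3. All 9 are annotated as protein coding. The promoter table from RefSeq on GRCm38.p6 held C1qb, C1qc, C3 and Cd59a. The 250 bases before the RefSeq start of each are shown. The RefSeq start of C1qc lies inside the span of the gene given above, which comes from GENCODE. The windows are shown because C1qb and C1qc varied together across libraries while Cd59a moved the other way with SCFA. They span chr4:136886201-136886450 (minus strand), chr4:136892915-136893164 (minus strand), chr17:57228137-57228386 (minus strand) and chr2:104095551-104095800 (plus strand), written 5′ to 3′. Capitals mark the letters GAGGAA, the core bound by the myeloid factor PU.1, and TTNNGNAA, a C/EBP-like pattern, on either strand.

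C1qb: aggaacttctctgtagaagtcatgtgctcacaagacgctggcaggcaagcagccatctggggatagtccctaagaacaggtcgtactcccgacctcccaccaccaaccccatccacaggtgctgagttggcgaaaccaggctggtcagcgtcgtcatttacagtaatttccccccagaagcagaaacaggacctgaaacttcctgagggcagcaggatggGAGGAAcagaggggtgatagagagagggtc
C1qc: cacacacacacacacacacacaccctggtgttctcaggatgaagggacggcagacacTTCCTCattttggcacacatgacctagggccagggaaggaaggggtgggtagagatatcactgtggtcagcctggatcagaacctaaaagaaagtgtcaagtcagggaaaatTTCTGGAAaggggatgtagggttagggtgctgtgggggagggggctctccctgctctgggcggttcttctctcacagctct
C3: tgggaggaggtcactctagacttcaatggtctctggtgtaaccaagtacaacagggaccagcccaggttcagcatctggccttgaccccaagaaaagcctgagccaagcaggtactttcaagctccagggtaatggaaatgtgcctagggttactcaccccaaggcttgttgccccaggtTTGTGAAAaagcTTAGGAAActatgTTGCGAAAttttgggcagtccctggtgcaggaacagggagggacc
Cd59a: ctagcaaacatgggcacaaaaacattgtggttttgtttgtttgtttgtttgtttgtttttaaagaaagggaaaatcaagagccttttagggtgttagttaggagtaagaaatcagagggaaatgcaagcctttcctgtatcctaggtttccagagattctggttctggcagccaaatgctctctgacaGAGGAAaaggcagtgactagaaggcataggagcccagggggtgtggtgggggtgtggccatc

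GAGGAA was found once in C1qb, C1qc and Cd59a and not in C3, against 23.3% of 32851 promoter windows of this length. TTNNGNAA was found 3 times in C3 and once in C1qc, against 36.8% of windows. The other patterns searched were an NF-kB-like pattern (45.8% of windows), TTCNNNGAA (STAT-like, 7.02%), TGANTCA (AP-1-like, 6.75%) and TATAAA (12.4%), each on both strands. The NF-kB-like pattern occurred in all 4 windows, with overlapping matches in C1qb, C1qc and C3, and with 4 matches in all in C3. TTCNNNGAA, TGANTCA and TATAAA occurred in none. A match of letters is a description and not a binding site.

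Cd59a was the most abundant member, with a median of 94.1 CPM over all libraries (60.0 to 157 CPM), followed by C4b with 27.3 CPM (11.2 to 58.7 CPM). The C1q genes were close to each other, at medians of 15.04 CPM for C1qa, 17.9 CPM for C1qb and 15.4 CPM for C1qc. Serping1 had a median of 13.4 CPM, C3 of 3.92 CPM and Cfi of 1.07 CPM. Per kilobase of the longest transcript, the median was 52.1 CPM for Cd59a, 16.5 for C1qb, 14.5 for C1qa, 12.8 for C1qc, 7.55 for Serping1, 5.07 for C4b, 0.764 for C3 and 0.512 for Cfi. On this scale the C1q genes therefore ranked above C4b, and C3, the central component, was low. Cfb was at 3 counts or fewer in 36 of 43 libraries and at 0 counts in 16, with a maximum of 10 counts. The floor of 3 counts was between 0.134 and 0.246 CPM and covers counting error only. Cfb was thus not measurable at this depth, and no fold is given for it.

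**Figure D1:**
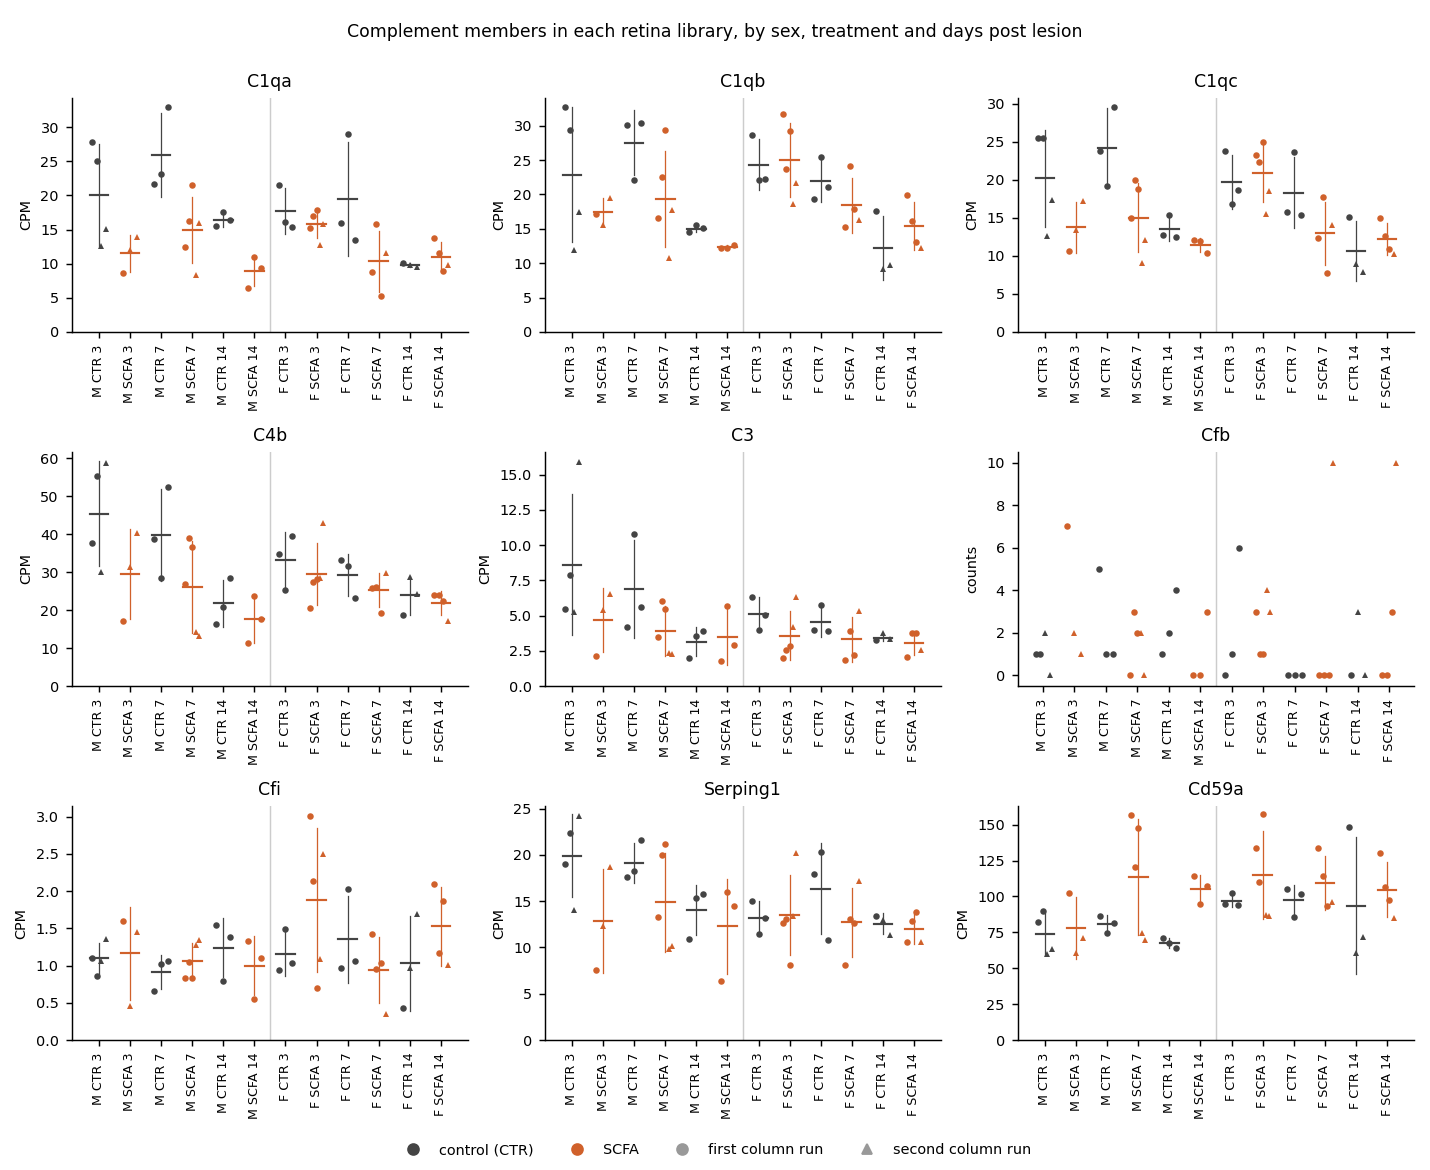
Each point is a library of 2 pooled retinas, by sex (M, F), treatment (CTR or SCFA) and dpl on the x axis, and CPM on the y axis, except Cfb, shown as counts. Lines are group means with vertical bars of 1 SD, circles the first 31 and triangles the last 12 columns. C1qa reached its highest group mean, 25.9 CPM, in male controls at 7 dpl, and Cfb stayed at 10 counts or fewer.

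The order of the 12 group means was mostly not resolved. Neighbours in the order were compared with the larger of their SDs, and among 11 neighbouring pairs the gap exceeded it in 1 pair for C1qb and in 0 pairs for the other 7 tested members. C1qa, C1qb and C1qc each had their highest mean in male controls at 7 dpl, at 25.9 ± 6.10, 27.5 ± 4.73 and 24.2 ± 5.22 CPM (SD, n = 3). C3, C4b and Serping1 had theirs in male controls at 3 dpl, at 8.63 ± 5.00, 45.5 ± 13.8 and 19.9 ± 4.46 CPM (SD, n = 4). Cfi and Cd59a were highest in female SCFA libraries at 3 dpl, at 1.89 ± 0.967 and 115 ± 30.7 CPM (SD, n = 5). The lowest mean of Cd59a, 67.5 ± 3.23 CPM, was in male controls at 14 dpl (SD, n = 3), and that of C1qa, 8.93 ± 2.26 CPM, in male SCFA libraries at 14 dpl (SD, n = 3).

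The next comparison asked which members differed with SCFA. Averaged over the 6 combinations of sex and day, 5 of 8 tested members were called lower and 1 was called higher. The components C1qa, C1qc, C4b and C3 and the inhibitor Serping1 were lower, and the membrane attack inhibitor Cd59a was higher. Among all genes 17.0% were called lower and 17.7% higher in this comparison. The median log2 fold change was -0.25 over the 8 members and 0.00 over all genes tested (0.00310).

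C1qa, a chain of C1q, fell by 0.53 ± 0.12 on the log2 scale (adjusted p = 0.000974) and Cd59a rose by 0.38 ± 0.06 (adjusted p = 2.1e-05). C3 fell by 0.51 ± 0.18 (adjusted p = 0.0299) and C4b, which supplies the C4 cleaved after C1q binding, by 0.35 ± 0.13 (adjusted p = 0.0466). These correspond to folds of 0.693 for C1qa, 0.702 for C3, 0.787 for C4b and 1.30 for Cd59a. The calls of C1qc (-0.22 ± 0.10, adjusted p = 0.0910) and Serping1 (-0.28 ± 0.13, adjusted p = 0.0944) were near the threshold and were lost without the Y-linked and the lens-rich library. C1qb was not called, with a log2 fold change of -0.09 ± 0.09 and an approximate 95% interval from -0.26 to 0.08. Within the first 31 columns alone C1qb was called lower, at -0.25 (adjusted p = 0.0537), beside C1qa at -0.67 (adjusted p = 0.00170). The last 12 columns held both treatments only in males at 3 dpl and females at 14 dpl, the latter with 1 SCFA library. There the log2 ratio of mean CPM, SCFA over control, was -0.09 and 0.01 for C1qa. It was 0.25 and 0.37 for C1qb and 0.04 and 0.29 for C1qc, without a test. Cfi, like C1qb, was not called with all 43 libraries, at 0.13 ± 0.19 with an interval from -0.24 to 0.50. C1qa, Cd59a and C3 kept their call when any single library was left out. C4b lost it without male SCFA replicate 1 at 3 dpl (adjusted p = 0.111), C1qc lost it in 17 and Serping1 in 24 of the 43 fits with a library left out.

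With each library's trend over GC content and transcript length removed, an alternative added after the data had been seen, 2 members were called lower, C1qa (-0.43, adjusted p = 0.00261) and C3 (-0.43, adjusted p = 0.0735), and Cd59a stayed higher (0.28, adjusted p = 0.000278). C4b, C1qc and Serping1 were then not called, with log2 fold changes of -0.24, -0.14 and -0.25 and adjusted p-values of 0.189, 0.253 and 0.147. The longest transcripts have a GC content of 59.5% in C1qa, 57.5% in C1qc, 57.4% in C1qb, 55.3% in C4b, 53.3% in C3, 52.3% in Serping1 and 44.6% in Cd59a.

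**Figure D2:**
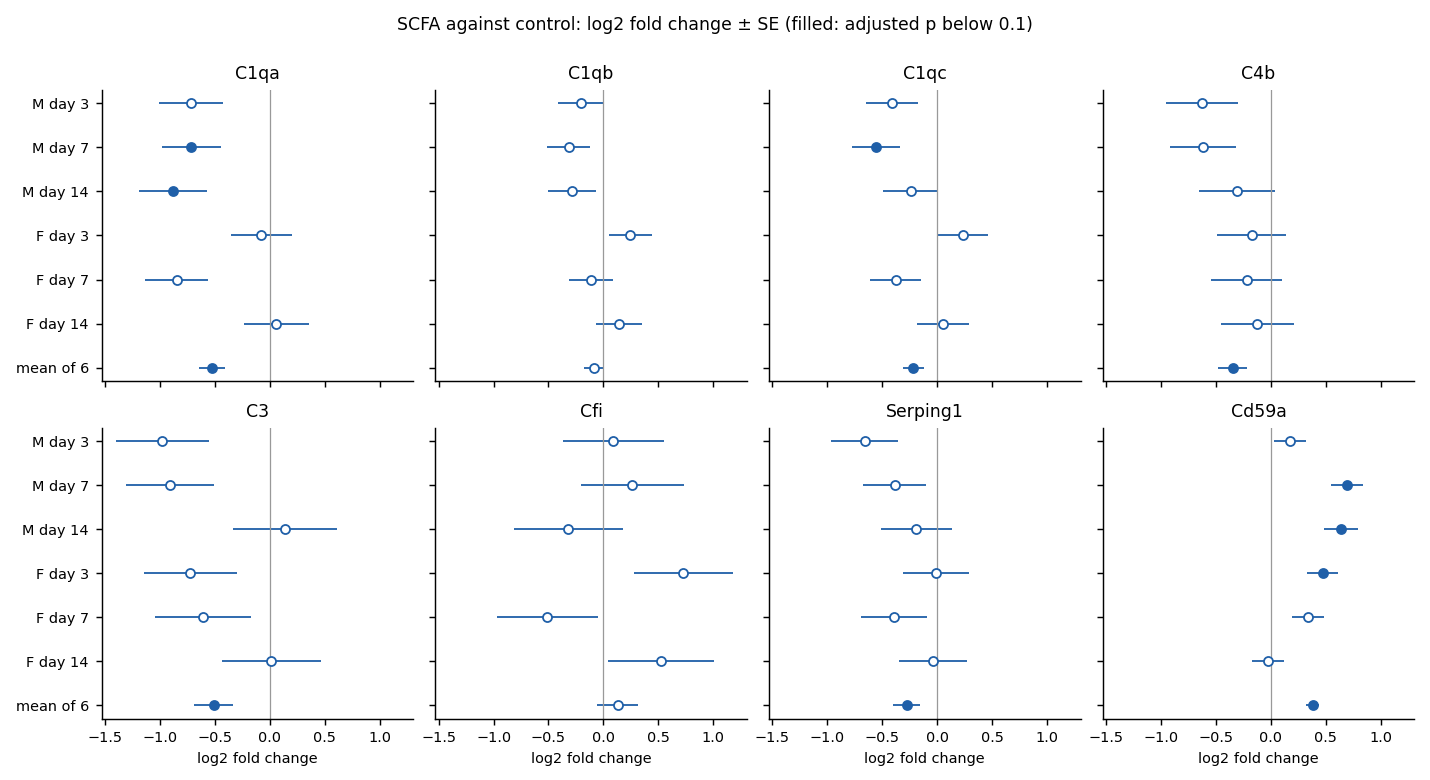
Log2 fold change of SCFA against control (x axis) with its SE for the 8 tested members, in males and females at 3, 7 and 14 dpl and as the mean of the 6. Filled points have an adjusted p below 0.1. The mean was filled for C1qa, C1qc, C4b, C3 and Serping1 on the lower side and for Cd59a on the higher side.

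In the single groups of sex and day, C1qa was called in males at 7 and 14 dpl, and its estimate in females at 7 dpl was of similar size without a call. At 7 dpl the male control libraries had 21.7, 23.2 and 32.9 CPM of C1qa and the male SCFA libraries 12.4, 16.3, 21.5, 8.40 and 16.0 CPM. All control values were above all SCFA values, the nearest pair being 21.7 and 21.5 CPM. Lack of overlap is only a description, here and in later comparisons, as its share among all genes is not given. C1qa fell by 0.71 ± 0.27 in this comparison (adjusted p = 0.0653), a call lost without SCFA replicate 1 or 4 or control replicate 2 or 3. With the GC and length trend removed, C1qa was called neither at 7 dpl (-0.49, adjusted p = 0.177) nor at 14 dpl (-0.73, adjusted p = 0.130) in males. At 14 dpl the male controls had 15.5, 17.5 and 16.4 CPM of C1qa and the male SCFA libraries 6.51, 10.98 and 9.31 CPM. Again the groups did not overlap, and C1qa fell by 0.88 ± 0.31 (adjusted p = 0.0995). This call at the edge of the threshold was lost in 31 of 43 fits with a single library left out. At 3 dpl the male controls had 27.8, 25.0, 12.6 and 15.04 CPM of C1qa and the male SCFA libraries 8.66, 11.9 and 13.9 CPM. The groups overlapped through control replicate 3, at 12.6 CPM and from the last 12 columns, and the log2 fold change of -0.72 ± 0.29 was not called (adjusted p = 0.370).

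In females, C1qa at 7 dpl was 16.0, 29.0 and 13.4 CPM in controls and 8.76, 15.8, 5.24 and 11.5 CPM with SCFA. The groups overlapped, the 29.0 CPM came from the library with Y-linked counts, and the log2 fold change of -0.85 ± 0.28 was not called (adjusted p = 0.152). Its unadjusted p of 0.00515 was below those in males at 7 dpl (0.0115) and 14 dpl (0.00697). It was called without SCFA replicate 2 or control replicate 3, and by DESeq2 (adjusted p = 0.0671). At 3 dpl female controls had 21.6, 16.1 and 15.4 CPM and female SCFA libraries 15.3, 17.0, 17.9, 12.8 and 15.8 CPM, with a log2 fold change of -0.08 ± 0.28. At 14 dpl female controls had 10.1, 9.86 and 9.46 CPM and female SCFA libraries 13.8, 11.6, 8.97 and 9.74 CPM, with a log2 fold change of 0.06 ± 0.30. C1qa was thus lower with SCFA in 5 of the 6 comparisons and called in 2.

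C1qc, the third chain, was called in males at 7 dpl alone. The male controls had 23.7, 19.2 and 29.6 CPM of C1qc and the male SCFA libraries 14.97, 19.9, 18.8, 9.12 and 12.1 CPM. A single SCFA value lay within the control range, and C1qc fell by 0.56 ± 0.22 (adjusted p = 0.0809). This call was lost without SCFA replicate 1, 4 or 5 or control replicate 1 or 3, and with the GC and length trend removed (-0.36, adjusted p = 0.230). C1qb in the same libraries was 30.1, 22.1 and 30.5 CPM in controls and 16.6, 22.5, 29.3, 10.7 and 17.8 CPM with SCFA, with a log2 fold change of -0.32 ± 0.20 (adjusted p = 0.290). In a separate fit of the libraries the study lists, without the column run as a term, C1qb was called lower here (-0.69, adjusted p = 0.0773). For females at 14 dpl such a fit called C1qb (0.81, adjusted p = 0.0614) and C1qc (0.62, adjusted p = 0.0791) higher with SCFA. With the column run in the fit these were 0.14 ± 0.21 and 0.05 ± 0.24, without a call. Between the last 12 and the first 31 columns the log2 difference was -0.57 ± 0.11 for C1qb and -0.42 ± 0.12 for C1qc. The part of the column run in those calls was not tested. In the first 31 columns alone, neither C1qa nor C1qc was called in males at 7 dpl. In males at 14 dpl the control and SCFA values of C1qb and C1qc also did not overlap, at 14.6 to 15.5 against 12.2 to 12.6 CPM for C1qb and 12.4 to 15.4 against 10.4 to 12.03 CPM for C1qc, but neither was called, with log2 fold changes of -0.29 ± 0.22 and -0.24 ± 0.25.

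Cd59a, the inhibitor of the membrane attack complex, was called higher with SCFA in 3 of the 6 comparisons. At 7 dpl the male controls had 86.5, 74.3 and 81.4 CPM of Cd59a and the male SCFA libraries 156, 121, 148, 74.4 and 69.7 CPM. The 3 high SCFA values were from the first 31 columns, as were all 3 controls, and the other 2 from the last 12. Cd59a rose by 0.69 ± 0.14 with the column run in the fit (adjusted p = 0.00143). In a separate fit of the libraries the study lists, which held no term for the column run, it was not called, at 0.14 (adjusted p = 0.662). In the same comparison 3 of 8 Muller glia markers were called higher, Glul (1.03 ± 0.19), Rlbp1 (0.91 ± 0.22) and Aqp4 (0.85 ± 0.20). The median of the 8 was 0.15. The libraries with 156 and 148 CPM of Cd59a had summed Muller glia markers of 9422 and 11200 CPM, above the 5183 to 7110 CPM of the other male libraries at 7 dpl, and summed rod markers of 61570 and 50490 CPM, below the 76290 to 104100 CPM of those others. The part of these cells in the Cd59a difference was not tested. At 14 dpl, where all male libraries were from the first 31 columns, male controls had 70.8, 67.4 and 64.3 CPM of Cd59a and male SCFA libraries 114, 94.4 and 107 CPM. These groups did not overlap, and Cd59a rose by 0.64 ± 0.16 (adjusted p = 0.0360), a call lost without SCFA replicate 1 or 3 or control replicate 1 or 2. In females at 3 dpl, controls had 94.9, 102 and 94.1 CPM of Cd59a and SCFA libraries 134, 110, 157, 86.9 and 86.3 CPM. The last 2 of these SCFA values were again from the last 12 columns, and Cd59a rose by 0.47 ± 0.14 (adjusted p = 0.0578). It was not called without SCFA replicate 2 or 3 or any of the 3 controls, and was called without the Y-linked and the lens-rich library together. Here too 3 of 8 Muller glia markers were called higher, Glul (0.65 ± 0.19), Rlbp1 (0.67 ± 0.21) and Vim (1.02 ± 0.28), with a median of 0.395. Summed Muller glia markers were 9889, 10030 and 8591 CPM in SCFA replicates 1, 2 and 3 and 5664 and 7600 CPM in replicates 4 and 5. The female controls had 5628 to 6584 CPM, and the part of these cells was again not tested.

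Without the column run as a term, none of these 3 Cd59a comparisons was called, at 0.50 in males at 7 dpl, 0.64 in males at 14 dpl and 0.24 in females at 3 dpl on the log2 scale. The value in males at 14 dpl was that of the fit with the term (adjusted p = 0.235 without it), and the mean over the 6 comparisons was still called (0.30, adjusted p = 0.0407). Cd59a was lower by 0.65 ± 0.08 on the log2 scale in the last 12 columns than in the first 31. Within the first 31 columns alone, the ratio of mean Cd59a CPM favoured SCFA in 5 of 6 comparisons, and within the last 12 columns in both comparisons that could be made there, males at 3 dpl and females at 14 dpl. These are counts without a test, and 3 of them rest on an arm of 1 library, in males at 3 dpl (first 31 columns) and in females at 14 dpl (both runs).

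The share of counts from mitochondrial mRNA moved with Cd59a. It was 4.71% to 9.05% in control and 4.86% to 14.8% in SCFA libraries of the first 31 columns, and 2.50% to 3.24% and 3.73% to 4.57% in the last 12. Within strata of sex, day and column run, the share was 1.75 percentage points higher with SCFA (permutation test with 100000 resamples, two-sided, p = 0.0124, adjusted p = 0.0249 over 4 values tested, 38 libraries). This test was added after the data had been seen. Over 43 libraries with run means removed, log2 Cd59a and the log2 mitochondrial share had a Pearson's r of 0.695, given as a description because the libraries share groups and depth. The same r was between -0.257 and 0.269 for the other 7 tested members. The part of the mitochondrial share in the Cd59a difference was not tested.

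**Figure D3:**
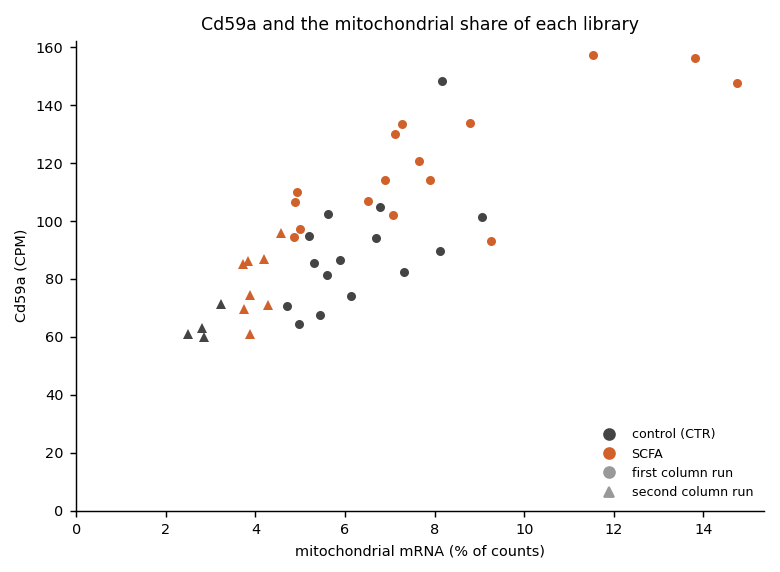
Each point is a library, with the percent of counts from mitochondrial mRNA on the x axis and Cd59a CPM on the y axis, coloured by treatment, circles for the first 31 and triangles for the last 12 columns. The 3 libraries above 11% (11.5%, 13.8% and 14.8%) were SCFA libraries and held 157, 156 and 148 CPM of Cd59a.

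C3 was lower with SCFA in the mean without a call in any of the 6 comparisons. At 3 dpl female controls had 6.32, 4.00 and 5.05 CPM of C3 and female SCFA libraries 1.99, 2.54, 2.85, 4.16 and 6.31 CPM. The 3 SCFA libraries of the first 31 columns were below all controls and those of the last 12 were not, and the log2 fold change was -0.72 ± 0.42 (adjusted p = 0.328). In a fit of the first 31 columns alone, C3 was called lower in these females (-1.07, adjusted p = 0.0839). In males at 3 dpl, controls had 5.46, 7.90, 5.24 and 15.9 CPM of C3 and SCFA libraries 2.16, 5.37 and 6.52 CPM, with a log2 fold change of -0.98 ± 0.43 (adjusted p = 0.407). A single control library, replicate 4, held the 15.9 CPM. At 7 dpl male controls had 4.19, 10.8 and 5.59 CPM of C3 and male SCFA libraries 3.45, 6.05, 5.46, 2.34 and 2.25 CPM. This log2 fold change of -0.91 ± 0.40 was not called (adjusted p = 0.120), but was without SCFA replicate 2 or control replicate 1. At 14 dpl the estimates for C3 were near 0, at 0.14 ± 0.47 in males and 0.01 ± 0.45 in females on the log2 scale.

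C4b was below zero in all 6 comparisons, from -0.63 ± 0.32 in males at 3 dpl to -0.12 ± 0.33 in females at 14 dpl, with no call. In males at 7 dpl it was 38.7, 28.4 and 52.3 CPM in controls and 26.9, 39.0, 36.7, 14.1 and 13.3 CPM with SCFA. These groups overlapped in the libraries of the first 31 columns. Serping1 was likewise below zero in all 6, from -0.66 ± 0.31 in males at 3 dpl to -0.01 ± 0.30 in females at 3 dpl. Cfi, which inactivates C3b and C4b, was above zero in 4 of the 6, with libraries between 0.35 and 3.01 CPM (6 to 47 counts). Its call was not reached anywhere, and its largest log2 fold change, 0.73 ± 0.45 in females at 3 dpl, had an approximate 95% interval from -0.15 to 1.61.

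The share of members called is set against the share of all genes called in each comparison. In males at 7 dpl 3 of 8 members were called, against 22.2% of all genes, in males at 14 dpl 2 of 8 against 7.13%, and in females at 3 dpl 1 of 8 against 8.11%. Without the Y-linked and the lens-rich library, the genes called in females at 3 dpl fell from 1476 to 206 and those in males at 14 dpl rose from 1298 to 2623, with the same members called. In males at 3 dpl edgeR called 0 members and 0.022% of genes, in females at 7 dpl 0 members and 0.643% of genes, and in females at 14 dpl 0 members and 0.0% of genes. At an unadjusted p below 0.05 there were 3, 2 and 0 members in these last comparisons, and 1981, 2875 and 529 genes. DESeq2 called 0, 1 (C1qa, lower) and 0 members there.

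A difference between males and females in the SCFA response was tested by an interaction term. No member was called at 3, 7 or 14 dpl by edgeR (0.0% of genes at 3 dpl, 0.0% at 7 dpl and 0.0% at 14 dpl) or by DESeq2. At an unadjusted p below 0.05 there were 1, 0 and 2 members, against 2296, 1332 and 1822 genes. At 14 dpl these 2 were Cd59a, with a male minus female response of 0.66 ± 0.21 on the log2 scale (adjusted p = 0.485), and C1qa, with -0.94 ± 0.43 (adjusted p = 0.487). At 3 dpl it was C1qc, with -0.65 ± 0.32 (adjusted p = 0.394). The calls of C1qa in males and their absence in females are therefore not a shown difference between the sexes.

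The log2 ratio of C1qa to C1qb counts in a library removes what scales both genes alike. The pair was chosen after its different estimates with SCFA had been seen. The ratio is therefore given as a description, and the p of the permutation test run on it is left out. In control libraries the ratio ran from -0.80 to 0.19 with a median of -0.22, and in SCFA libraries from -1.77 to -0.15 with a median of -0.49. In males at 14 dpl the 3 controls had ratios of 0.09, 0.18 and 0.12 and the 3 SCFA libraries -0.91, -0.15 and -0.44, so that these groups did not overlap. In males at 3 dpl the 4 controls had -0.24, -0.23, 0.07 and -0.22 and the 3 SCFA libraries -0.99, -0.38 and -0.49, again without overlap. In the other 4 combinations of sex and day the groups overlapped, as at 7 dpl in males, with -0.47, 0.07 and 0.11 in controls and -0.42, -0.46, -0.45, -0.35 and -0.15 with SCFA.

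Within 8 strata of sex, day and column run that held both treatments, the log2 ratio of C1qa to C1qb differed by -0.44 between SCFA and control (19 libraries each). Without the Y-linked and the lens-rich library the difference was -0.42, and within the first 31 columns -0.46. The log2 ratio of C1qc to C1qb differed by -0.14.

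**Figure D4:**
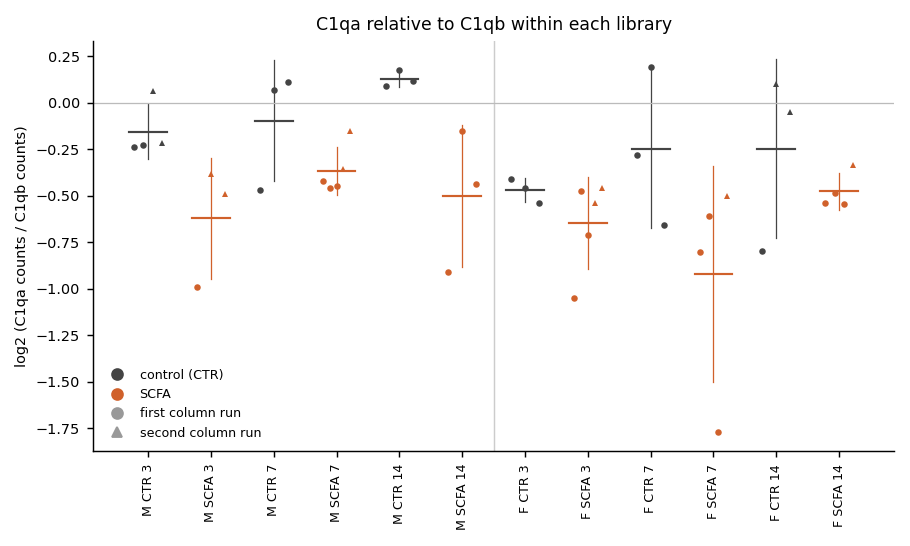
The log2 ratio of C1qa to C1qb counts in each library (y axis) by sex, treatment and dpl (x axis), with group means and vertical bars of 1 SD, circles for the first 31 and triangles for the last 12 columns. SCFA libraries lay between -1.77 and -0.15, and 8 control libraries lay above 0.

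The microglial markers were measured in the same libraries. Of 10 markers, 2 were called lower with SCFA in the mean of the 6 comparisons, Trem2 (-0.39 ± 0.13, adjusted p = 0.0185) and Csf1r (-0.30 ± 0.09, adjusted p = 0.0130), and their median log2 fold change was -0.16. The homeostatic markers Cx3cr1, P2ry12 and Tmem119 had -0.04 ± 0.10, -0.19 ± 0.13 and -0.16 ± 0.12, without a call. The summed level of the 10 markers was 47.1 to 89.1 CPM in controls and 34.2 to 108 CPM with SCFA. The log2 ratio of summed C1q to summed microglial markers differed by -0.15 with SCFA within the strata (permutation test as for the mitochondrial share, chosen after the data had been seen, p = 0.0664, adjusted p = 0.0664). Among markers of infiltrating myeloid cells, Ms4a7 was called lower (-0.58 ± 0.23, adjusted p = 0.0632), 1 of 4 tested of 8 listed, and Ccr2 was at 0 in 16 libraries. Of 8 Muller glia markers 3 were called higher, Glul (0.24 ± 0.08), Aqp4 (0.24 ± 0.08) and Rlbp1 (0.21 ± 0.09). The median of the 8 was 0.07. Without a call, Gfap had -0.18, Dkk3 -0.14, Apoe -0.06, Slc1a3 -0.01 and Vim 0.15. The part of any cell type in the members' differences was not tested.

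Between the sexes, Cd59a was the only member called. Averaged over treatment and day, Cd59a was lower in males than in females by a log2 fold change of -0.27 ± 0.06 (adjusted p = 0.0260), with 2.31% of all genes called. In controls at 14 dpl the male libraries had 70.8, 67.4 and 64.3 CPM of Cd59a and the female libraries 148, 60.9 and 71.5 CPM. The female 148 CPM was the only value of that group from the first 31 columns, in which all 3 male libraries lay, and the log2 fold change with the column run in the fit was -0.82 ± 0.16 (adjusted p = 0.0161). Without that library, female control replicate 1, the log2 fold change was -0.55 and not called, and without male control replicate 2 or 3 the call was lost as well. With SCFA at 3 dpl Cd59a was 102, 60.9 and 71.0 CPM in males against 134, 110, 157, 86.9 and 86.3 CPM in females, with a log2 fold change of -0.39 ± 0.14 (adjusted p = 0.0884), a call lost in 10 of 43 fits with a library left out. Without the column run as a term, no sex difference of Cd59a was called, although the estimates were -0.27 in the mean (adjusted p = 0.289), -0.56 with SCFA at 3 dpl and -0.47 in controls at 14 dpl.

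For these sex comparisons the shares of all genes called were 4.65% in controls at 14 dpl and 13.6% with SCFA at 3 dpl, with 1 of 8 members called in each. In the other 4, edgeR called 0 members, with 0.0495% of genes in controls at 3 dpl, 0.0275% in controls at 7 dpl, 0.253% with SCFA at 7 dpl and 0.0604% with SCFA at 14 dpl. At an unadjusted p below 0.05 there were 0, 0, 1 and 1 members and 941, 694, 1860 and 464 genes, and DESeq2 called 0 members in each. C3 had a male minus female difference of 0.34 ± 0.18 in the mean, with an approximate 95% interval from -0.00 to 0.68 (adjusted p = 0.335).

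Over time, C1qb fell between 3 and 14 dpl in both treatments. In controls, averaged over the sexes, C1qb fell by 0.75 ± 0.15 (adjusted p = 0.0698), a call lost in 9 of 43 fits with a library left out, and C1qc was at -0.70 ± 0.17 without a call (adjusted p = 0.190). In SCFA libraries C1qb fell by 0.84 ± 0.15 (adjusted p = 0.0112) and C1qc by 0.71 ± 0.17 (adjusted p = 0.0311). The call of C1qc was lost without male SCFA replicate 3 at 3 dpl (adjusted p = 0.139). Group means of C1qb were 22.9 ± 9.78 (n = 4) and 15.1 ± 0.477 CPM (n = 3) in male controls at 3 and 14 dpl, and 24.4 ± 3.71 and 12.2 ± 4.66 CPM (SD, n = 3 each) in female controls. With SCFA they were 17.4 ± 2.00 and 12.3 ± 0.248 CPM in males (SD, n = 3 each) and 25.0 ± 5.40 (n = 5) and 15.4 ± 3.50 CPM (n = 4) in females.

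In female controls C1qb was 28.6, 22.1 and 22.3 CPM at 3 dpl and 17.5, 9.18 and 9.80 CPM at 14 dpl, without overlap. The last pair of values was from the last 12 columns, in which C1qb was lower by 0.57 ± 0.11 on the log2 scale. In male SCFA libraries C1qb was 17.2, 15.6 and 19.6 CPM at 3 dpl and 12.2, 12.2 and 12.6 CPM at 14 dpl, also without overlap. Within the first 31 columns alone no member was called between days, with C1qb at -0.76 in controls (adjusted p = 0.542) and -0.63 with SCFA (adjusted p = 0.210). Without the column run as a term no member was called between days either, with C1qb at -0.80 in controls (adjusted p = 0.230) and -0.60 with SCFA (adjusted p = 0.354).

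C1qa, C3 and C4b had log2 fold changes between 14 and 3 dpl in controls of -0.53 ± 0.21, -1.03 ± 0.32 and -0.77 ± 0.24, without a call (adjusted p = 1, 0.662 and 0.662). With SCFA the log2 fold changes of C3 and C4b were -0.11 ± 0.33 and -0.58 ± 0.24, and whether these differ from the controls' was not tested. The estimates for Cd59a were near 0, at -0.07 ± 0.11 in controls and -0.09 ± 0.11 with SCFA. Fcrls, a microglial marker, fell by 1.19 ± 0.24 in controls and by 1.34 ± 0.24 with SCFA over the same interval, and the myeloid gene Lyz2 by 1.44 ± 0.31 and 1.30 ± 0.30. Fcrls was the only one of 10 microglial markers called in controls (median of the 10, -0.25), and with SCFA 3 of 10 were called lower (median -0.50). With SCFA over this interval, 8 of 10 pigment epithelium markers (median -1.17) and 7 of 7 lens markers (median -6.06) were called lower. So were 2 of 8 Muller glia markers, Vim and Gfap (median of the 8, -0.28). In controls 0 of each of these 3 lists were called. Female SCFA replicate 2 at 3 dpl, the lens-rich library, held 235100 CPM of lens and 2063 CPM of pigment epithelium markers. The next highest lens sum was 673 CPM. Without the Y-linked and the lens-rich library, genes called with SCFA fell from 921 to 270, with C1qb and C1qc still called. The part of any marked cell type in the fall of C1qb and C1qc was not tested.

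From 3 to 14 dpl, 1 of 8 members was called in controls, against 0.0824% of all genes, and 2 of 8 with SCFA, against 5.06%. From 3 to 7 dpl edgeR called 0 members in controls (0.0% of genes) and 0 with SCFA (0.0%), and from 7 to 14 dpl 0 members in controls (0.0%) and 0 with SCFA (0.0659%). At an unadjusted p below 0.05 there were 0 and 2 members from 3 to 7 dpl (1191 and 1555 genes) and 5 and 1 from 7 to 14 dpl (1701 and 2497 genes). DESeq2 called 0 members in either treatment from 3 to 7 dpl. From 7 to 14 dpl it called C1qb and C1qc lower in controls and C1qb lower with SCFA, the latter also called by edgeR without the Y-linked and the lens-rich library, and from 3 to 14 dpl it added C1qc in controls and C1qa with SCFA.

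**Figure D5:**
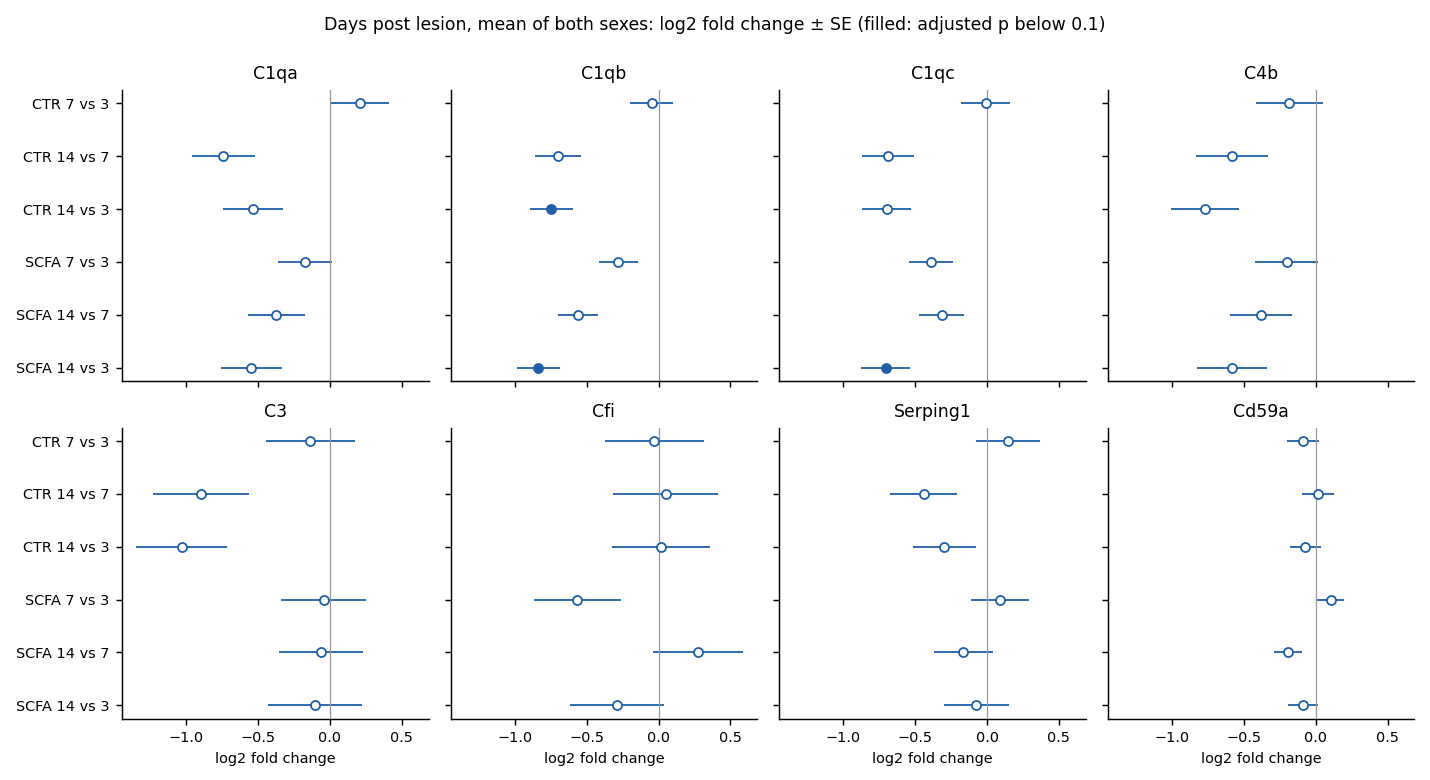
Log2 fold change between days post lesion (x axis) with its SE for the 8 tested members, as the mean of both sexes, in controls (CTR) and SCFA libraries. Filled points have an adjusted p below 0.1. Only the 14 against 3 dpl comparisons hold filled points, C1qb in both treatments and C1qc with SCFA.

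The rest of the complement system was sparse in the retina. Of 49 other complement genes, 27 passed the filter. Among recognition molecules and proteases of the classical and lectin pathways 9 of 16 were tested and 0 were called with SCFA in the mean, where C1ra, which encodes a protease of the C1 complex, had a median of 2.05 CPM and C2 of 1.04 CPM. Cfp, which encodes the stabilizer properdin, had 19.0 CPM, while Cfd, which encodes the protease that cleaves factor B, was at 3 counts or fewer in 41 of 43 libraries. Of the terminal components C8g alone passed, with a median of 1.53 CPM, whereas Hc, which encodes C5, C6, C7 and C9 stayed at 3 counts or fewer in all 43 libraries. C8g was called lower with SCFA in the mean (-0.42 ± 0.17, adjusted p = 0.0537).

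The genes with most counts were regulators. Vtn (vitronectin) had a median of 1273 CPM and Clu (clusterin) of 735 CPM, both inhibitors of the terminal complex. Of 16 regulators 11 were tested, 2 were called lower with SCFA in the mean, Clu (-0.27 ± 0.10, adjusted p = 0.0434) and Susd4 (-0.23 ± 0.05, adjusted p = 0.000510), and 1 was called higher, Csmd1 (0.27 ± 0.09, adjusted p = 0.0182). C1s1, which encodes a protease of the C1 complex, was called higher in females at 3 dpl (1.23 ± 0.44, adjusted p = 0.0995). Without the Y-linked and the lens-rich library it was not called, at 0.99 (adjusted p = 0.256). Markers of pigment epithelium moved alongside, with 5 of 10 called higher (Rgr, Ttr, Rdh5, Lrat and Tyrp1, by 1.27 to 1.66 on the log2 scale), and their part was not tested. Of the receptors 5 of 8 were tested and C5ar1 was called lower in the mean (-0.75 ± 0.32, adjusted p = 0.0727), but not without that pair of libraries (adjusted p = 0.130), with a median of 0.253 CPM and 3 counts or fewer in 16 libraries. Between 14 and 3 dpl the integrin subunits of complement receptor 3 were lower, Itgam in controls (-1.17 ± 0.25) and Itgb2 with SCFA (-1.10 ± 0.26).

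The near copies of members had few counts, given here as CPM and not per length. C4a, close to C4b in sequence, had a median of 1.92 CPM against 27.3 CPM for C4b, and Cd59b had 1.03 CPM against 94.1 CPM for Cd59a. How reads shared by such copies were counted is not given in the sources used here, so the split between copies is uncertain.

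Across the 43 libraries, with run means removed from log2(CPM + 1), the members fell into patterns. C1qb and C1qc were closest (Pearson's r = 0.886) and C1qa and C1qc had 0.859. The genes most like C1qa were Trem2 (0.883), C1qc and Laptm5 (0.831), and those most like C1qb were C1qc, Fcgr3 (0.864) and Fcer1g (0.840). For C1qc the third gene, after C1qb and C1qa, was Arpc1b (0.838). C1qa and C1qb had 0.746.

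C3, C4b and Serping1 formed a second pattern, with r of 0.815 for C3 and Serping1, 0.796 for C3 and C4b and 0.777 for C4b and Serping1. The third gene of C3 was Lcn2 (0.737), that of C4b was Gfap (0.831), the intermediate filament of reactive glia, and those of Serping1 were Rarres2 (0.833) and Fam129a (0.808). Cd59a was most like Cbx1 (0.888), Ikzf5 (0.879) and Npm1 (0.878), and Cfi most like Aqp11 (0.660), Pcp2 (0.623) and Cplx3 (0.618). With C1qa, Cd59a had -0.283 and Cfi 0.003. These correlations are descriptions over libraries that share groups and treatment. With group means removed as well, C1qa and Trem2 had 0.828, C1qb and C1qc 0.785 and Cd59a and Cbx1 0.729. C1qc (0.841) was then the gene most like C1qa, ahead of Trem2, and Cbx1 was at rank 46 for Cd59a. With run means kept, Cbx1 was at rank 260.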

How the data were processed

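RNA of pooled retinas was sequenced in 43 libraries. For each gene the authors deposited raw read counts, not normalized, between 14826957 and 21507527 per library, and the columns were matched to samples by library name. The submitters' processing notes name DESeq2, without a version, and genome build mm10. The aligner, annotation and strand setting are not given in the sources used here. Symbols came from the reference tables, which name 54409 of 54532 identifiers, and positions from GENCODE M21 on GRCm38, the assembly of mm10.

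The 9 members and all gene lists were chosen with earlier results of these data known. Genes were filtered with filterByExpr, and libraries scaled by TMM. Groups were compared in 1 fit of all 43 libraries, with 12 groups and the column run as covariate, by edgeR 4.0.16 in R 4.3.3. The SE is the log2 fold change divided by the square root of F. An approximate 95% interval is 1.96 SE to each side. Pattern likeness is Pearson's r on log2(CPM + 1). The mitochondrial share and the ratio of C1q to microglial markers were tested by permuting treatment within strata. The ratios of C1qa and of C1qc to C1qb were tested likewise, which makes the 4 values of the adjustment, but their p-values are not given. All were added after the data had been seen.

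Named genes are the members, complement and marker genes called in a comparison, near copies, and the 3 genes most like each member. Examples of uncalled complement and marker genes were added after their values were seen. Alternatives were DESeq2 1.42.0, RLE scaling, other filters and thresholds, the libraries the study lists, the replicate block and each library left out. The libraries the study lists were fitted separately, without the column run as a term. Replicates differed by more than sampling noise in all 59 pairs within groups.

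The test was tested on simulated data with 17893 genes. For the mean of the 6 SCFA comparisons, 95% of genes changed 1.5-fold and 100% of genes changed 2-fold were called, and for males at 7 dpl 35% and 87%. Unchanged genes called were 17 and 13 in these comparisons. The changed genes were drawn above a minimum mean CPM and changed alike in all SCFA libraries. No effect of sex, day or column run was simulated, so these shares may not hold for the members. Python 3.11.15, numpy 2.4.6, pandas 2.3.3 and matplotlib 3.10.9 served for tables and figures.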

Additional observations from a re-analysis of the deposited data

Results flagged for a closer look

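5 of 95 combinations of a value and a group of 4 or 5 libraries held a library far from the others by Dixon's test, and chance gives about 1 in 20. Among the members' own values this concerned the log2 ratio of C1qa to C1qb, which was 0.065 in male control replicate 3 at 3 dpl, against -0.237 to -0.219 in the other 3 libraries. No CPM value of a member stood apart in this way.

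The other 4 were marker sums. Markers of infiltrating myeloid cells summed to 24.9 CPM in female SCFA replicate 2 at 7 dpl, against 8.87 to 9.89 CPM in the other 3. That library held 15.8 CPM of C1qa, the highest value of its group. Oligodendrocyte markers summed to 700 CPM (699.8) in male SCFA replicate 2 at 7 dpl, against 51.8 to 127 CPM, and to 165 CPM (164.7) in female SCFA replicate 3 at 3 dpl, against 43.6 to 72.9 CPM. Lens markers summed to 235100 CPM in female SCFA replicate 2 at 3 dpl, against 20.4 to 673 CPM. C1qa in that library was 17.0 CPM, within the 12.8 to 17.9 CPM of its group.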

How the results depend on the processing

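Of 937 values recomputed under other settings, 802 kept their direction and their side of the threshold or stayed within 1.5 times the count, and of 3177 with 1 library left out, 2979 did. The cause of a change was not tested unless the setting itself is smaller or stricter. The libraries the study lists were fitted separately and without the column run as a term. Cd59a in females at 14 dpl then turned from -0.02 to 0.77 (adjusted p = 0.0536), and its male difference at 7 dpl was not called. Female control replicates 2 and 3 at 14 dpl were from the last 12 columns. Cd59a had a log2 difference of -0.65 ± 0.08 between these and the first 31 columns. The part of the column run in this turn was not tested. For the mean SCFA comparison, the 5 members called lower became 3 with 10 counts required in every library, 2 with the GC and length trend removed, 3 at an adjusted p under 0.05 and 3 without the Y-linked and the lens-rich library, and with 1 library left out 2 to 5, the lowest without male SCFA replicate 1 at 3 dpl. With an absolute log2 fold change over 1 as well, 0 members were called lower and 0 higher there, and 0 in every other member count, while genes called in the mean went from 6317 to 128. The member called higher stayed 1 with 1 library left out. The 6 member calls in the 6 SCFA comparisons became 3 with GC and length removed, 2 at 0.05, 2 with no column run and 14 with no filter, and 3 to 7 with 1 library left out, the lowest without male SCFA replicate 1 or male control replicate 3 at 7 dpl. The 2 member calls between the sexes became 1 at 0.05, 0 with no column run and 4 with no filter, and 1 to 2 with 1 library left out. The 1 member called in the mean sex difference became 0 with no column run and 2 with no filter, and stayed 1 with 1 library left out. The 3 member calls between days became 8 with DESeq2, 0 in the first 31 columns, 0 with no column run and 17 with no filter, and 2 to 7 with 1 library left out, with 7 without male SCFA replicate 1 at 3 dpl and 5 without female SCFA replicate 3 at 7 dpl. The 0 calls in the interaction became 1 with no filter and stayed 0 with 1 library left out. Genes called in the mean SCFA comparison ran from 5683 to 6814 with 1 library left out. Genes called in the mean sex difference, 420, became 1133 with DESeq2, 72 at 0.05, 250 in the first 31 columns, 13 with the fold threshold, 69 with no column run and 909 with no filter, and 81 to 878 with 1 library left out. Genes called between 14 and 3 dpl in controls, 15, became 9 with 10 counts required, 31 with DESeq2, 1 at 0.05, 0 in the first 31 columns, 3 with no column run and 132 with no filter, and 1 to 21 with 1 library left out. With SCFA, 921 became 1508 with DESeq2, 600 with GC and length removed, 219 at 0.05, 2 in the first 31 columns, 196 with the fold threshold, 1 with no column run, 1660 with no filter and 270 without that pair of libraries, and 87 to 1791 with 1 library left out.

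Same-numbered libraries of different groups had a mean correlation of 0.0139 in their deviations (37 pairs, 12 over 0.1). For libraries of other numbers the mean was -0.0047. A mean near 0 shows no general pairing by number but cannot exclude pairing in some groups. With the replicate block, member calls between the sexes became 1 and between days 1, genes called in the mean sex difference 638, between 14 and 3 dpl in controls 1 and with SCFA 84. It added C3 in males at 7 dpl. The depth limits Cfb, and Cfi at 6 to 47 counts.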
